A study of Mus musculus with 3 samples.

Results

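Growth hormone signalling in liver was described through 10 genes, chosen by symbol: Igf1, Igfals, Ghr, Stat5a, Stat5b, Socs2, Cish, Bcl6, Cux2 and Onecut1. All 10 were found among the 49492 entries of the files, and all 10 were among the 14585 genes kept at 1 CPM (counts scaled to the library size) or more in at least 1 library. The livers came from outbred CD-1 mice, and their RNA was sequenced. In the 12-week group and the 8-week group, mice took a daily oral dose of zinc oxide nanoparticles (ZnO NPs) at 25 mg/kg body weight, suspended with ultrasound, for the stated time. Control mice received the same volume of phosphate-buffered saline (PBS). Each group is 1 library, which leaves every difference without replicates and without a p-value. The labels give neither the sex nor the age of the mice, nor the number of animals behind a library, the age at which the control was sampled or the hour of collection.

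Growth hormone from the pituitary binds its receptor GHR on hepatocytes, which activates the kinase JAK2 and the transcription factors STAT5A and STAT5B. STAT5 drives Igf1 and Igfals, whose products circulate together, and the feedback inhibitors Socs2 and Cish. In rodents the hormone is released in pulses in males and more continuously in females, and this pattern sets much of the sex difference of liver gene expression. In mouse liver, Cux2 is a mainly female repressor of male-biased genes, and Bcl6 is a repressor, more abundant in males, that binds near STAT5 sites. Onecut1 encodes HNF6, a liver factor under growth hormone control in rat.

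The libraries held 13263328 counts at 12 weeks, 14258915 at 8 weeks and 13615143 in the control. In the same order, 3 counts were worth 0.227, 0.209 and 0.221 CPM. The liver label was checked against 8 hepatocyte markers, of which 7 were matched by symbol. They summed to 49043 CPM at 12 weeks, 48163 at 8 weeks and 38332 in the control. At each time, 4 of the 7 lay above the control and 3 below it. Most of each sum was Alb, at 31169 CPM at 12 weeks, 31793 at 8 weeks and 21847 in the control. The 14 Kupffer cell and macrophage markers summed to 332, 433 and 106 CPM in that order, with none at 0. The 12 skeletal muscle markers summed to 1.74, 202 and 2.35 CPM, with 5 of them at 0 at 12 weeks and 7 at 0 in the control. Of 21 clock genes, 3 were at least 2-fold higher and 1 lower at 12 weeks, and 8 higher and 4 lower at 8 weeks, against the control. Of all kept genes, 3.11% were higher and 1.34% lower at 12 weeks, and 4.15% higher and 2.1% lower at 8 weeks. In bulk RNA, fewer cells of a type and less RNA per cell cannot be told apart.

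Promoter sequence bears on these genes because STAT5 is known to bind the palindrome TTCNNNGAA. RefSeq windows of the GRCm38.p6 build, from 250 bases before to 50 bases after an annotated start, were matched by symbol for 9 of the 10 genes, 16 windows in all. The palindrome reads the same on both strands. It occurred in 5 of the 16 windows, belonging to 3 genes (Cish, Bcl6 and Igfals), and in 8.3% of all 32851 windows of this length. Those of Igf1, Ghr, Stat5a, Stat5b, Cux2 and Onecut1 did not hold these letters. A second palindrome, ATCGAT, which cut-domain proteins such as the CUX family are known to bind, occurred in 1 of the 2 Cux2 windows, in no window of the other genes and in 0.925% of all windows. The 3 windows below are shown because they hold the palindrome in a feedback inhibitor, in the repressor Bcl6 and in the carrier protein Igfals. Capitals mark TTCNNNGAA, and each is written 5′ to 3′ on the gene's strand. A match is a description of letters, not a binding site.
Cish, chr9:107296409-107296708, plus strand: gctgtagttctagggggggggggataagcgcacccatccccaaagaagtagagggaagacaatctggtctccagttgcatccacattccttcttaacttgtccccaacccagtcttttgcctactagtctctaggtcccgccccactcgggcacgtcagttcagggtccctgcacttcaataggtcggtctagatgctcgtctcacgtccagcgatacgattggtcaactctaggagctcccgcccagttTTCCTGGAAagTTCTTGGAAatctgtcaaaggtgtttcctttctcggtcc
Bcl6, second annotated start, chr16:23981234-23981533, minus strand: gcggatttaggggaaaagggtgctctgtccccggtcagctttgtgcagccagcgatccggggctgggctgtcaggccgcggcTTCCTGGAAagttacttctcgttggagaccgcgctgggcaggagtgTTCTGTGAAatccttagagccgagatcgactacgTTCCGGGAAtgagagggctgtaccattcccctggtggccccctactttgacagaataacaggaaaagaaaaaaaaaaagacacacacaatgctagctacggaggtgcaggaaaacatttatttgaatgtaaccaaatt
Igfals, second annotated start, chr17:24877981-24878280, plus strand: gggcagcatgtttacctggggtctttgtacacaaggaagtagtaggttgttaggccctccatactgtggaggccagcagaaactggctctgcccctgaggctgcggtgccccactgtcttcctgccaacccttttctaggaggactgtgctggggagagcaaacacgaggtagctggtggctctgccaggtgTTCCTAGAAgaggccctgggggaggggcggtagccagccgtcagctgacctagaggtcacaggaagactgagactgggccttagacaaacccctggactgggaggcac

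The Cish window holds 2 matches, which begin at the annotated first base and at base 12 after it, counted from 1. Windows with 2 or more matches made up 0.457% of all windows. The Bcl6 window holds 3 matches, 168, 122 and 88 bases before the start, and 0.0335% of all windows hold 3 or more. The Igfals match lies 58 bases before the start. Both Igfals windows with a match end upstream of the counted Igfals entry, which begins at chr17:24878770. The remaining Igfals window, chr17:24878497-24878796, reaches the beginning of that entry and holds no match.

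Cish, Cux2 and Onecut1 were several-fold higher in both ZnO NP libraries than in the control, and Socs2 was higher at 12 weeks. The receptor Ghr, both STAT5 genes, Igf1, Igfals and Bcl6 differed by less than 2-fold. Each change is given as the log2 ratio of CPM + 1, and a gene was called at 2-fold, a limit on size that tests nothing. Each interval is an exact 95% interval of the ratio of counts, taken without the added CPM, for counting error only. At 12 weeks against control, 4 of the 10 genes were called higher and 0 lower, where 3.11% of all kept genes were called higher and 1.34% lower. At 8 weeks against control, 3 were called higher and 0 lower, where 4.15% of all kept genes were called higher and 2.1% lower. The median log2 ratio of the 10 genes was 0.43 at 12 weeks and 0.41 at 8 weeks, beside medians of -0.01 and -0.02 over all kept genes. The ZnO NP comparisons share the control library, and the genes were chosen with earlier results known, so these shares describe the list and do not test it.

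**Figure D1:**
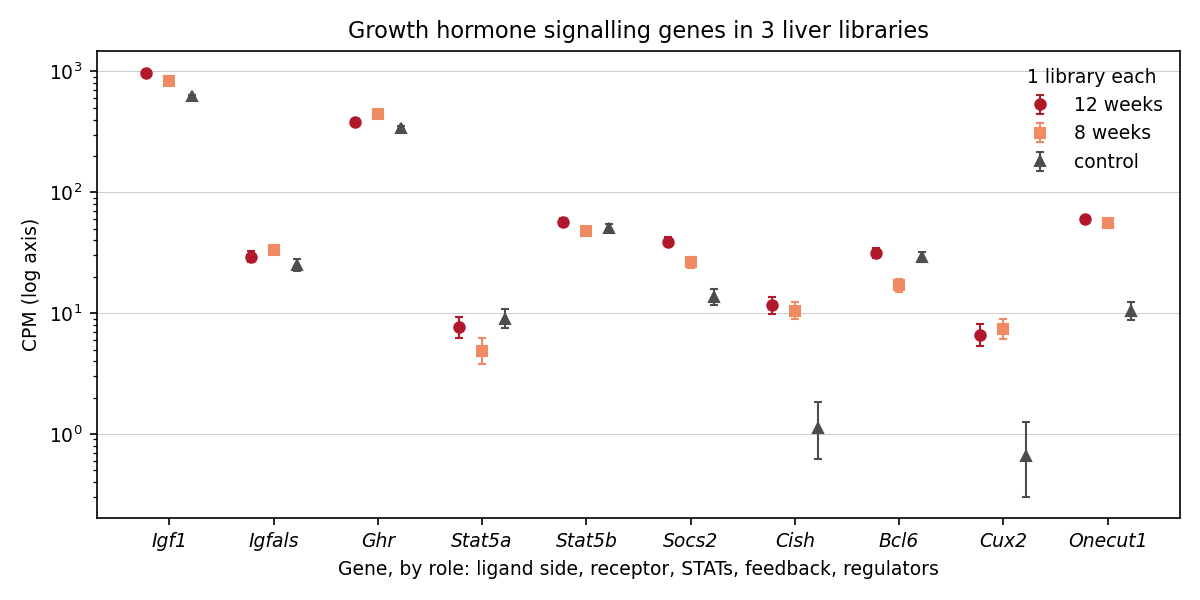
CPM of the 10 growth hormone signalling genes (log axis) in the 12-week, 8-week and control libraries, 1 point per library, with exact 95% Poisson intervals for counting error as bars. Cish and Cux2 had 1.11 and 0.663 CPM in the control and lay above 6 CPM in both ZnO NP libraries; levels are to be compared within a gene, since CPM is not corrected for length.

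Downstream of STAT5, Igf1 encodes the hormone through which much of the growth effect is carried. Igf1 had 973 CPM at 12 weeks, 836 CPM at 8 weeks and 631 CPM in the control. Both ZnO NP libraries were above the control, with log2 ratios of 0.62 at 12 weeks (interval 0.58 to 0.66) and 0.40 at 8 weeks (0.36 to 0.44). Neither reached 2-fold. Igfals encodes the acid-labile subunit, which holds IGF1 and its binding protein in a long-lived complex in blood. Igfals had 29.4 CPM at 12 weeks, 33.5 CPM at 8 weeks and 25.0 CPM in the control. Its log2 ratios were 0.23 (0.02 to 0.45) at 12 weeks and 0.41 (0.22 to 0.63) at 8 weeks. Between 12 and 8 weeks the log2 ratio of Igfals was -0.18, with an interval that includes 0 (-0.38 to 0.01). Igfbp3, which encodes the binding protein of that complex and is not among the 10, had 14.2, 23.2 and 16.1 CPM in the order 12 weeks, 8 weeks and control.

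The receptor Ghr had 379 CPM at 12 weeks, 445 CPM at 8 weeks and 342 CPM in the control. The log2 ratios were 0.15 (0.09 to 0.21) and 0.38 (0.33 to 0.44) at 12 and 8 weeks. Stat5b, the main STAT5 of hepatocytes, had 56.5 CPM at 12 weeks, 48.2 CPM at 8 weeks and 51.1 CPM in the control. Its log2 ratios of 0.14 at 12 weeks (-0.01 to 0.29) and -0.09 at 8 weeks (-0.24 to 0.07) had intervals that include 0. Stat5a, its close paralog, had 102, 70.5 and 122.5 estimated counts in the order 12 weeks, 8 weeks and control, and was lowest at 8 weeks. Stat5a had a log2 ratio of -0.76 (-1.33 to -0.44) at 8 weeks and -0.20 (-0.62 to 0.17) at 12 weeks. The STAT5 genes are near-identical over much of their coding sequence and reads could be split between them, so single values are uncertain. The 3′ end of Stat5a also shares 72 exon bases with Stat3 on the opposite strand, and Stat3 had 158, 121 and 79.9 CPM in the same order.

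Among Igf1, Igfals, Ghr, the STAT5 genes and the feedback genes of the 10, the feedback inhibitors Socs2 and Cish had the largest log2 ratios at either time. Socs2, which limits growth hormone action and whose loss in mouse gives an overgrown animal, had 39.1 CPM at 12 weeks, 26.4 CPM at 8 weeks and 13.6 CPM in the control. Each ZnO NP library lay above the control, and the 12-week library above the 8-week one. Socs2 was called higher at 12 weeks with a log2 ratio of 1.46 (1.28 to 1.78), and at 8 weeks it lay just under the 2-fold limit at 0.91 (0.70 to 1.22). Cish encodes CIS, an SH2 protein that binds activated cytokine receptors. Cish had 153.5 estimated counts at 12 weeks, 151 at 8 weeks and 15 in the control, or 11.6, 10.5 and 1.11 CPM. The ratio of CPM was 10.5-fold at 12 weeks (6.18 to 19.3) and 9.53-fold at 8 weeks (5.60 to 17.5), against log2 ratios of 2.58 and 2.45 with the added CPM. By that log2 ratio Cish ranked 37th highest of the 14585 kept genes at 12 weeks and 62nd at 8 weeks. Opposite-strand gene models share exon bases with Cish, and without known strand use reads of either cannot be told apart. Gm17041, whose 479 bases all lie within Cish exons, had 34 estimated counts at 12 weeks, 39 at 8 weeks and 0 in the control. Gm17040, with 261 shared bases, had 15, 24 and 1. Cish is also used by lymphocytes. Their 9 markers summed to 20.5 CPM at 12 weeks, 21.1 at 8 weeks and 10.5 in the control. Most of each sum, and of its difference from the control, was the pan-leukocyte gene Ptprc. Ptprc had 16.8, 16.4 and 6.34 CPM in that order. Ms4a1 at 12 weeks, Nkg7 at 8 weeks and Cd8a in the control were at 0. The part of lymphocytes in the Cish values was not tested.

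Cux2 was low in the control and higher in both ZnO NP libraries. Cux2 had 88.5 estimated counts at 12 weeks, 105.5 at 8 weeks and 9 in the control, or 6.64, 7.40 and 0.663 CPM. The interval of the ratio of counts, scaled to library size, ran from 5.04-fold to 22.6-fold at 12 weeks and from 5.66-fold to 25.1-fold at 8 weeks, with log2 ratios of 2.2 and 2.34 after the added CPM. The wide intervals reflect the 9 control counts. No entry of the files shares exon bases with Cux2.

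Onecut1 had 59.6 CPM at 12 weeks, 55.7 CPM at 8 weeks and 10.5 CPM in the control. The ZnO NP libraries were close to each other and 5.70-fold (4.76 to 6.86) and 5.32-fold (4.45 to 6.41) above the control, at 12 and 8 weeks. Of its exon bases, 2171 are shared with the same-strand model Gm20649, which had 271.33, 227.5 and 57 estimated counts in the order 12 weeks, 8 weeks and control. With the counts of both added, an alternative chosen after seeing the data, the log2 ratio of Onecut1 was 2.37 at 12 weeks and 2.21 at 8 weeks, against 2.40 and 2.31 alone. Onecut1 is also expressed in bile duct cells. Their 6 markers summed to 35.1 CPM at 12 weeks, 25.0 at 8 weeks and 32.5 in the control, with none at 0. Most of each sum was Spp1 (19.6, 18.4 and 15.6 CPM) and Sox9 (13.4, 4.68 and 15.3 CPM). Krt19, Krt7 and Cftr lay below 1 CPM in each library. The part of bile duct cells in the Onecut1 values was not tested. Kupffer cell markers, like Onecut1, Cux2 and Cish, were higher in both ZnO NP libraries than in the control. They summed to 332 CPM at 12 weeks, 433 at 8 weeks and 106 in the control. Their part in the Onecut1, Cux2 and Cish values was not tested. Skeletal muscle markers summed to 1.74 CPM at 12 weeks, 202 at 8 weeks and 2.35 in the control. Their part in the values of these 3 genes was not tested.

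Bcl6 had 420 estimated counts at 12 weeks, 243 at 8 weeks and 398 in the control, so the 8-week library stood below the other two. Its log2 ratio was -0.76 (-1.03 to -0.56) at 8 weeks and 0.11 (-0.09 to 0.31) at 12 weeks. Neither reached 2-fold. Bcl6 shares 21 exon bases with the opposite-strand model Gm37419, which had 9, 13 and 14 estimated counts in the order 12 weeks, 8 weeks and control.

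**Figure D2:**
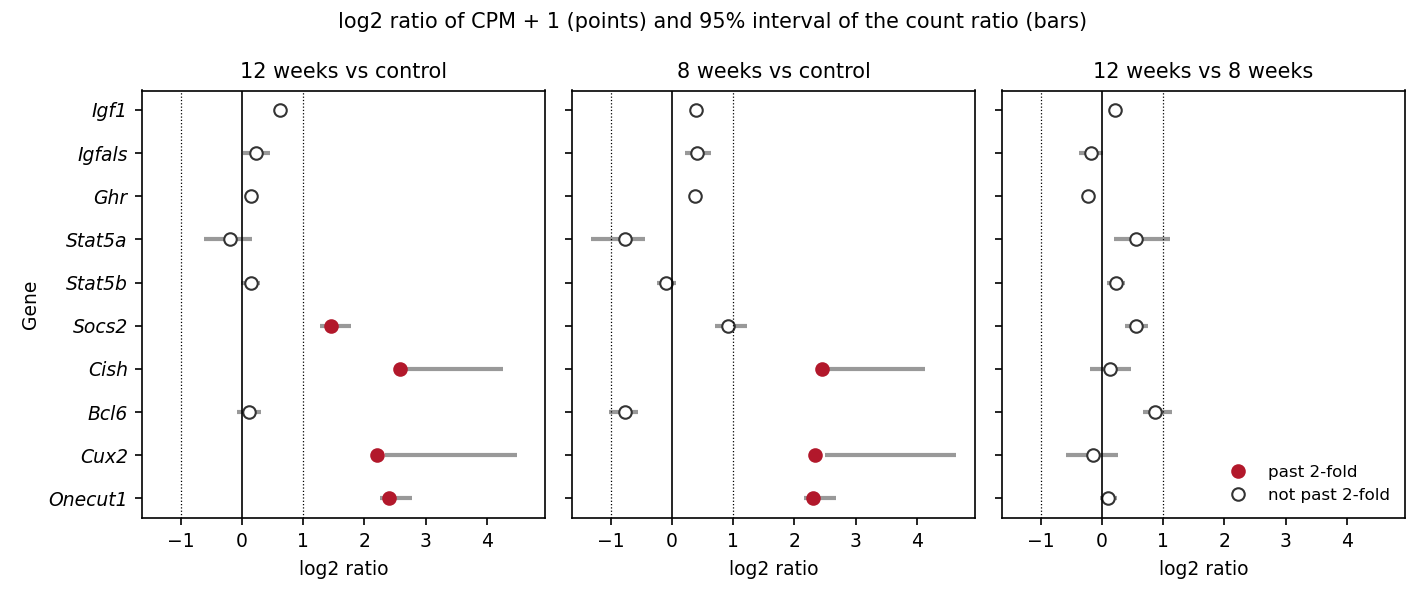
Log2 ratios of CPM + 1 (points) for each gene in 3 comparisons, with exact 95% intervals of the count ratio as bars and dotted lines at 2-fold. Filled points passed 2-fold: Socs2, Cish, Cux2 and Onecut1 at 12 weeks, Cish, Cux2 and Onecut1 at 8 weeks, and none between 12 and 8 weeks; for Cish and Cux2 the added CPM places the point below the lower end of its bar.

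Between the 12-week and 8-week libraries, 0 of the 10 genes were called in either direction, where 1.28% of all kept genes were called higher and 1.23% lower at 12 weeks. Bcl6 differed most, with a log2 ratio of 0.87 (0.67 to 1.14), followed by Stat5a at 0.56 (0.20 to 1.12) and Socs2 at 0.55 (0.37 to 0.76). Ghr was the lowest at -0.23 (-0.29 to -0.18). For Cish (-0.19 to 0.48), Cux2 (-0.58 to 0.27) and Onecut1 (-0.04 to 0.24) the interval of the log2 difference included 0.

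Levels of different genes were compared as CPM per kilobase of exon length. Igf1 was the highest of the 10 in each library, at 98.3, 84.4 and 63.8 CPM per kilobase at 12 weeks, at 8 weeks and in the control, followed by Ghr at 41.8, 49.2 and 37.8. Onecut1 stood at place 3 of 10 at 12 weeks (14.5), at place 4 at 8 weeks (13.5) and at place 6 in the control (2.54). At 12 weeks its level did not differ from that of Igfals (13.9) beyond counting error. Onecut1 shares 2171 exon bases with the same-strand model Gm20649, whose counts were left out here, so its level and places are uncertain. Cish and Cux2 were the lowest genes in the control, at 0.172 and 0.0658 CPM per kilobase. Stat5a was the lowest at 8 weeks (0.685), where it did not differ beyond counting error from Cux2 (0.734). Socs2 and Bcl6 at 8 weeks (2.77 and 2.53) and Socs2 and Stat5a in the control (1.42 and 1.26) also did not differ beyond counting error.

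Of 26 further components and modifiers of the pathway, 25 were kept, with 1 called higher and 0 lower at 12 weeks and 0 called at 8 weeks. Beside the 3.11% of all kept genes called higher at 12 weeks, 1 of 25 is near the background and says nothing of the list. Their median log2 ratios were 0.11 and 0.01. The gene called was Socs3, a feedback inhibitor shared with interleukin-6 type cytokines, with 18.3 CPM at 12 weeks, 5.65 at 8 weeks and 8.62 in the control. Its log2 ratio of 1.00 (0.76 to 1.41) at 12 weeks stands at the 2-fold limit, and it was -0.53 (-1.04 to -0.19) at 8 weeks. The kinase Jak2 had log2 ratios of 0.30 at 12 weeks and 0.22 at 8 weeks. Stat3, which acts downstream of interleukin-6, had log2 ratios of 0.98 (0.88 to 1.10) at 12 weeks and 0.59 (0.49 to 0.71) at 8 weeks. The glucocorticoid receptor Nr3c1, a partner of STAT5, had 146 CPM at 12 weeks, 165 at 8 weeks and 146 in the control. The prolactin receptor Prlr, which also signals through STAT5, had 0.11 and 0.49 at 12 and 8 weeks.

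Among 21 other liver transcription factors and cofactors, all kept, 0 were called at 12 weeks and 1 was higher at 8 weeks, which is near the 4.15% of all kept genes called higher there. That gene was Trim24, a cofactor of nuclear receptors, with 41.6 CPM at 12 weeks, 56.5 at 8 weeks and 20.7 in the control. The medians were 0.23 and 0.03 at 12 and 8 weeks. The paralogs of the regulators described above did not follow them past 2-fold: Onecut2 had log2 ratios of 0.12 and 0.49, and Cux1 had -0.05 and 0.09. Hnf4a, a central activator of hepatocyte genes, had 0.48 (0.45 to 0.52) at 12 weeks and 0.06 (0.02 to 0.10) at 8 weeks.

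Many genes known to depend on the pattern of growth hormone release passed 2-fold, beside the shares of all kept genes given above. Of 26 female-biased genes, 21 were kept, with 11 called higher and 0 lower at 12 weeks and 11 higher and 1 lower at 8 weeks. Their medians were 1.42 and 1.56, and these did not move with the 2 genes at 0 control counts set to their bound against 3 counts. The 1 lower gene was the neurotrophin receptor Ntrk2 (-1.35). The steroid hydroxylase Cyp2a4 had 130 CPM at 12 weeks, 62.6 at 8 weeks and 0.442 in the control. The fatty acid translocase Cd36 had 64.6, 76.7 and 11.3 CPM in the same order, and it is also expressed in macrophages. Of 28 male-biased genes, 27 were kept, with 5 called lower and 2 higher at 12 weeks and 14 lower and 0 higher at 8 weeks. The medians were -0.33 and -1.08. The lowest were Elovl3 (-4.31) and Selenbp2 (-2.78) at 12 weeks, and Elovl3 (-4.93) and Mup21 (-4.34) at 8 weeks. The 2 higher at 12 weeks were the growth factor receptor Egfr (1.53) and Keg1 (1.08), named after their values were seen. Cyp4a, Cyp2, Cyp3a and Mup genes have near-identical copies, so their single values are uncertain. Prlr and Tox are on the female-biased list and on 1 other list each.

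Between 12 and 8 weeks, 9 male-biased genes were called higher and 1 lower (median 0.48), and 4 female-biased genes higher and 2 lower (median -0.38). The male-biased genes with the largest log2 ratios there were Mup21 (4.01), Mup20 (2.96), Scara5, a ferritin receptor (1.84), and Mup7 (1.80). The lower ones were male-biased Selenbp2 (-1.19) and female-biased Abcd2 (-1.13) and Cyp3a41a (-1.08). With 1 library per time, neither the animals behind a library nor the collection hour can be told apart from the treatment time.

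**Figure D3:**
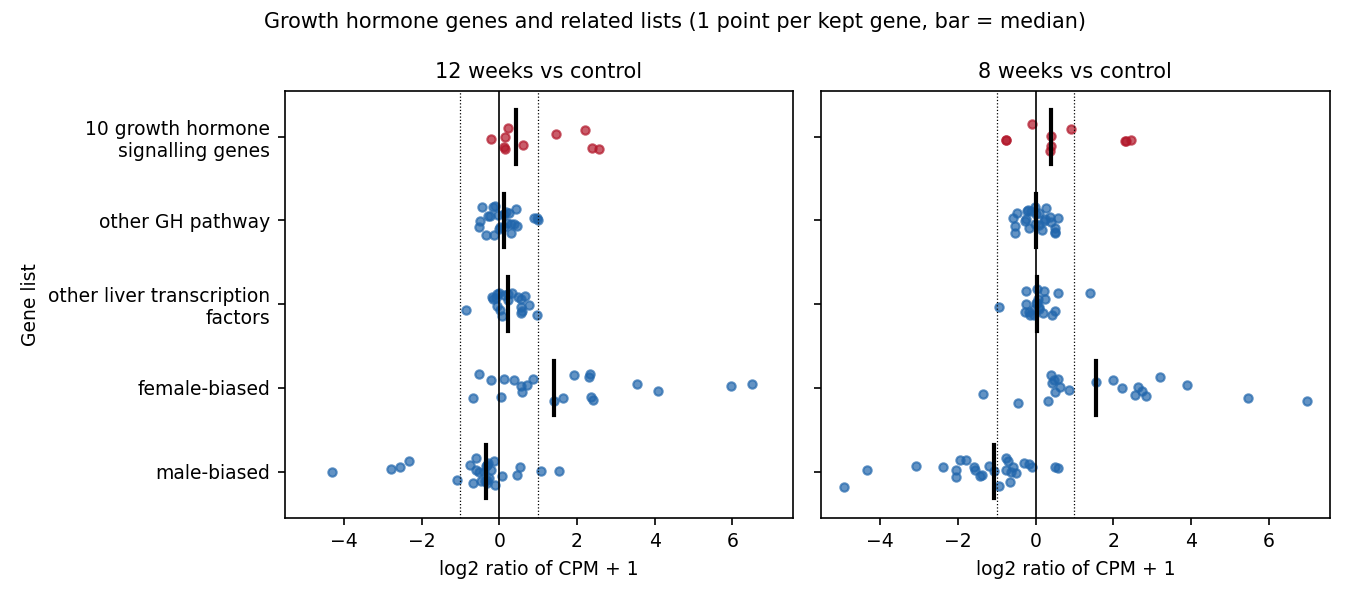
Log2 ratios of CPM + 1 against the control for each kept gene of 5 lists, at 12 weeks (left) and 8 weeks (right), with the median as a black bar and dotted lines at 2-fold. The medians of the 10 growth hormone signalling genes were 0.43 and 0.41, those of the female-biased genes 1.42 and 1.56, and those of the male-biased genes -0.33 and -1.08.

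Genes with the most similar pattern were sought by the distance between pairs of log2 ratios (12 and 8 weeks against the control) among 9566 named genes at 5 CPM or more. This rests on 3 libraries, and many genes can lie close by. Nearest to Cux2 was Rgs16, a regulator of G-protein signalling (distance 0.091), at 186 CPM at 12 weeks, 190 at 8 weeks and 39.1 in the control. Cux2 had 6.64, 7.40 and 0.663 CPM in the same order. This closeness depends on the added CPM, which lowers the log2 ratios of Cux2. Without it, the ratio to the control was larger for Cux2 than for Rgs16 at both times. The drug efflux pump Abcb1a was nearest to Onecut1 (distance 0.147), at 11.7, 11.3 and 1.62 CPM in the same order. Without the added CPM, the ratio to the control was larger for Abcb1a than for Onecut1 at both times. No gene lay within 0.1 of Onecut1 and 1 lay within 0.1 of Cux2, against 60 for Igf1 and 196 for Ghr. The nearest to Igf1 were Rab23, Zfp788 and Grb10, and genes near Ghr included Gpi1 and Stard5.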

How the data were processed

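The deposited files hold raw estimated counts for each gene, per the file headers; 70.2% to 71.5% of values above 0 were whole within 0.005. The files' length column is the union of listed exons, per the file headers. The submitters' processing notes name TopHat2 2.1.0, Cufflinks 2.2.1.0, mm9 and mm10 without roles. The counting program and its strand use are not given in the sources used here. GENCODE M21 (GRCm38) held 95.4% of the symbols, with identical spans for 90.9% of these, so coordinates are those of mm10.

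Counts were rounded and scaled by TMM (edgeR 4.0.16 under R 4.3.3); the factors were 0.9986 for 12 weeks, 1.005 for 8 weeks and 0.9966 for the control. Genes at 1 CPM or more in at least 1 library were kept, and 1 CPM was added before log2 ratios, which understates changes of low genes. No test was possible with 1 library per group. Intervals are exact (Clopper-Pearson) at 95% and cover counting error only, since 1 library per group shows no variation between libraries. Reads without molecular identifiers can be copies of 1 molecule, which would make the intervals too narrow. The ratios and intervals were tested on simulated counts.

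The 10 genes and the lists were chosen with earlier results of these data known. Named genes were the 10, up to 4 called members of each other list by size of change or else its 2 most abundant, and the 3 genes nearest to Onecut1, Cux2, Igf1 and Ghr; predicted gene models were passed over, and not every gene so taken is printed. Jak2, Stat3, Cd36, Onecut2, Cux1, Igfbp3, Ntrk2, Tox, Egfr, Keg1 and the overlapping models were named outside that rule, after their values were seen. So were the markers Krt19, Krt7, Cftr, Ms4a1, Nkg7 and Cd8a. Promoters are RefSeq's (GRCm38.p6). Other pseudocounts, thresholds, filters on low genes and scalings (DESeq2 1.42.0 size factors among them) were tried. Python 3.11.15, pandas 2.3.3 and scipy 1.17.1 were used.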

Additional observations from a re-analysis of the deposited data

Results flagged for a closer look

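For 2 of the 10 genes the log2 ratio against the control had opposite signs at the different times, a difference that was not tested because each group is 1 library. Bcl6 had 0.11 at 12 weeks and -0.76 at 8 weeks. Stat5b had 0.14 at 12 weeks and -0.09 at 8 weeks, and both intervals of its count ratio include 0.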

How the results depend on the processing

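No paired analysis was possible because each group is 1 library. With 11 other settings of the processing and 2 chosen after seeing the data, none of the 30 log2 ratios of the 10 genes changed sign or crossed 2-fold. The other thresholds give no log2 ratios. The other filters on low genes could not change those of the 10 genes, so their values were fixed in advance. Of 276 values under the settings that give log2 ratios, those filters included, 270 moved by less than the half-width of the counting interval. The other 6 were Cish, Cux2 and Onecut1 with 5 CPM added in place of 1, at 1.45, 1.04 and 2.06 at 12 weeks and 1.35, 1.13 and 1.97 at 8 weeks. At a 1.5-fold threshold, 2 genes were lower at 8 weeks against control (Bcl6 and Stat5a) in place of 0, with 7.97% of all kept genes, and 1 gene was higher at 12 weeks against 8 weeks (Bcl6) in place of 0, with 5.41% of all kept genes. At that threshold 5 genes were higher at 12 weeks and 4 at 8 weeks, with 9.28% and 10.6% of all kept genes, and at a 3-fold threshold 3 genes were higher at either time, with 0.905% and 1.54% of all kept genes. With 5 CPM added, 1.23% of all kept genes were higher and 0.549% lower at 12 weeks against control, and 1.84% and 1.1% at 8 weeks. With 0.5 CPM added, 2.12% were higher at 12 weeks against 8 weeks. Depth limits Cux2 and Cish, which had 9 and 15 counts in the control.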
